A study of Mus musculus with 19 samples.

Results

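The PAR bZIP transcription factor genes *Dbp*, *Tef* and *Hlf* and the gene of their repressor counterpart, *Nfil3*, were examined in the cornea and the conjunctiva of mice under calorie restriction (CR). These 4 genes were chosen by name as clock output factors, and each matched 1 row among the 24557 features of the cornea table and of the conjunctiva table. All 4 passed the filter on low values in both tissues, where 12278 genes (cornea) and 13929 genes (conjunctiva) were tested. RNA sequencing was available from 5 CR cornea libraries, 5 cornea libraries of mice fed ad libitum (AL), 5 CR conjunctiva libraries and 4 AL conjunctiva libraries, 19 in all. The study asked how CR changes the ocular surface transcriptome. The mice were C57BL/6 (by the study's methods, female C57BL/6 J), and the titles of both diets carry 6M and 50W. By the methods, CR was a 40% reduction kept for 4 months, from 6 to 7 months of age until 10 to 11 months, and the AL mice were of matching age. In 1 of the study's 2 mouse cohorts, CR mice got their food each day shortly before night, while AL mice could eat at any time, and the cohort of these libraries is not given. The hour of tissue collection is not given in the sources used here, so a shift in clock phase and a change in level at all hours cannot be told apart. The corneal epithelium was scraped off, and the conjunctiva was excised whole.

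Proteins of this family bind D-box elements in DNA as dimers. DBP, TEF and HLF activate from that element, and NFIL3, which lacks their proline- and acid-rich domain, represses from it. In the textbook clock, BMAL1 and CLOCK drive *Dbp* and related genes through E-boxes, the PER and CRY proteins hold that activity back, and *Nfil3* is driven by ROR receptors and repressed by the REV-ERB receptors, so that DBP and NFIL3 peak at opposite times of day. The family's known outputs lie in heme synthesis, vitamin B6 handling and drug oxidation, while *Nfil3* is also needed for natural killer cells and a class of dendritic cells.

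In the GENCODE annotation of build GRCm38, *Dbp* (gene identifier 13170) lies on chromosome 7 from 45705088 to 45710203 and *Tef* (21685) on chromosome 15 from 81802421 to 81826863, both on the plus strand. *Hlf* (217082) lies on chromosome 11 from 90336536 to 90390895 and *Nfil3* (18030) on chromosome 13 from 52967209 to 52981073, both on the minus strand. All 4 are protein-coding. The labels name build GRCm39 and the methods mm10 for the alignment, so these positions place the genes and are not taken from the expression tables. Exons of *Dbp* overlap those of *Sphk2* on the opposite strand over 539 bases (18% of the exon length of *Dbp*), and exons of *Tef* overlap the antisense gene *Gm17597* over 193 bases (2.45%). The use of strand in counting was not settled, so reads in these stretches could belong to either gene. *Sphk2* had its own values and moved the other way from *Dbp* in the cornea, with 1179 ± 66.4 normalized counts in AL and 821 ± 104.4 in CR (SD, n = 5 and 5, −0.53 on the log2 scale, limma adjusted p = 0.0269, below the fold limit for a call).

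RefSeq windows from 250 bases before to 50 bases after each annotated start (GRCm38.p6, 1 window for *Dbp*, *Hlf* and *Nfil3* and 2 for *Tef*) were searched on both strands for the E-box CACGTG, the D-box TTANNTAA and the ROR element core TAGGTCA. Of 32851 such windows of all genes, 7.15% held the E-box, 6.00% the D-box and 2.61% the ROR element core. Both *Tef* windows held an E-box, the upstream one also held a D-box, and the *Nfil3* window held the ROR element core on the opposite strand. The *Dbp* and *Hlf* windows held no match, and no 2 matches overlapped. The stretches that hold a match are shown because they carry the letters of elements known from this family and the clock, with the matched letters in capitals. The upstream *Tef* matches lie 127 bases (E-box) and 174 bases (D-box) before the RefSeq start, inside an exon that GENCODE gives to a longer *Tef* transcript. The *Nfil3* match lies 12 bases before its RefSeq start, also inside a GENCODE exon. The whole 250 bases before the second *Tef* start, where no exon is annotated, are shown for context, with the E-box 138 bases before the start.
Tef upstream window, E-box, chr15:81802534-81802563, plus strand: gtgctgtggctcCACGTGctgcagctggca
Tef upstream window, D-box, chr15:81802488-81802517, plus strand: cctttgcaaagTTAGATAAcaggccgggtt
Tef second window, chr15:81811164-81811413, plus strand: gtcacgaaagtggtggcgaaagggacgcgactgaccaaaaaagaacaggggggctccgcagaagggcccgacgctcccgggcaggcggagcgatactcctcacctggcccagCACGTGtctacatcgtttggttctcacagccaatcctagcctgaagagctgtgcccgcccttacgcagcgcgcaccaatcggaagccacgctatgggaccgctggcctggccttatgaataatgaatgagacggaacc
Nfil3 window, ROR element core, chr13:52981033-52981062, minus strand: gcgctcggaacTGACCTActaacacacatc
A match of letters describes the window only, and binding was not measured.

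Levels are normalized counts, that is reads divided by the authors' size factor of the library, and log2 changes are CR minus AL on the log2(normalized count + 1) scale with their standard errors (SE). A gene was called at a limma adjusted p under 0.05, taken over all genes tested in the tissue, with a fold change over 1.5. Cornea libraries held 10354125 to 14681223 counted reads and conjunctiva libraries 10726717 to 14433441. A gene at 0 could have had up to 3 reads, or 2.27 to 3.37 normalized counts depending on the library, which covers counting error only. The 6 corneal epithelium markers (keratins and other genes of that cell) summed to 481400 to 701000 normalized counts in the cornea, and the 6 conjunctival epithelium markers were all detected in the conjunctiva. Several libraries stood apart in other tissue. Lacrimal gland markers (8 genes) summed to 54050 normalized counts in cornea AL 1, to 130 to 1413 in the other 4 AL cornea libraries and to 56.7 to 400 in CR. For 4 of the 6 lacrimal genes tested in the cornea every CR library was below every AL library, and *Scgb2b24*, which has close copies that can share reads, was called lower (fitted log2 change −6.97, limma adjusted p = 0.0387). Cornea CR 7 had the highest sum of conjunctival epithelium markers (63370 against 25600 to 41970 in the other 9) and of fibroblast markers (2173 against 456 to 1818), and the lowest of corneal epithelium markers. The first sum was carried by keratins and does not by itself mark conjunctival tissue. *Krt13* averaged 27220 in the AL cornea and 21940 in the AL conjunctiva, each in its own scale. In the CR cornea *Muc5ac*, *Muc5b* and *Spdef* reached at most 6.57, 2.19 and 0, and *Krt4* and *Krt19* reached 10720 and 4490. Skeletal muscle markers (6 genes) summed to 11730 in conjunctiva AL 3, 13850 in CR 5 and 117300 in CR 3, against 39500 to 67890 in the other 6 conjunctiva libraries. Macrophage markers (7 genes) were lower in every CR conjunctiva library (1891 to 2752) than in every AL one (2920 to 3809). In tissue samples, fewer cells that express a gene and less RNA per cell cannot be told apart.

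In the cornea, 2 of the 4 genes rose under CR and none was called lower. By the ratio of means *Dbp* rose 6.75-fold and *Tef* 3.26-fold, while *Hlf* and *Nfil3* did not pass. Over all 12278 genes tested in the cornea, 0.749% were called higher and 0.472% lower, and 3.97% had no overlap between AL and CR libraries. In the conjunctiva, 3 of the 4 were called higher (*Dbp*, *Tef* and *Hlf*) and none lower, where 0.223% of 13929 genes were called higher, 0.136% lower, and 3.87% did not overlap. Of the called genes, 61.3% were higher in the cornea and 62% in the conjunctiva, a split that moved to 37% and 46.3% with array weights and, in the conjunctiva, to 51.8% with quantile normalization. Libraries of the 2 diets did not overlap for 2 of the 4 genes in the cornea (*Dbp* and *Tef*) and for all 4 in the conjunctiva. The count of *Nfil3* calls was 0 in each tissue with limma, although its unadjusted p was under 0.05 in both, and it was also 0 with limma voom. Over all genes tested with limma, 2219 of 12278 in the cornea and 1310 of 13929 in the conjunctiva had an unadjusted p under 0.05. Counts at that limit in the lists below are to be read against these shares.

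**Figure D1:**
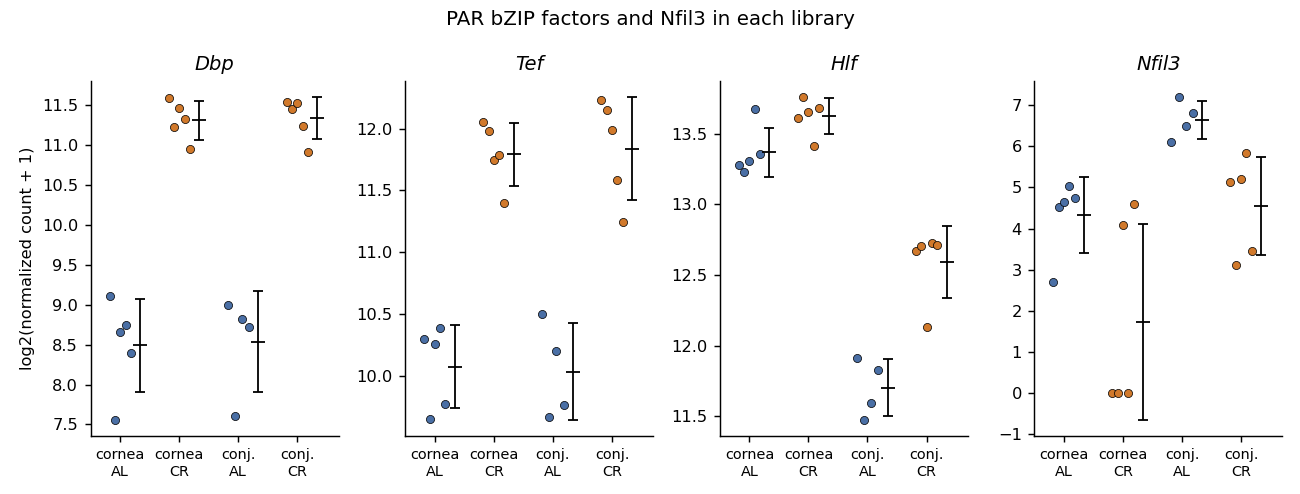
Each point is 1 library, on a log2(normalized count + 1) axis that differs between the 4 panels, and the bar beside each group is its mean ± SD (n = 5, 5, 4 and 5 from left to right). The CR libraries (orange) lie above every AL library (blue) for *Dbp* and *Tef* in both tissues and for *Hlf* in the conjunctiva, and below them for *Nfil3* in the conjunctiva.

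*Dbp*, the activator known for the strongest daily rhythm of the family, was read in the cornea at 550.1, 188, 402, 426 and 336 normalized counts in AL 1 to 5 and at 3072, 2381, 2829, 2566 and 1978 in CR 1, 2, 3, 4 and 7. The lowest CR library was thus well above the highest AL library, and AL 2 was the lowest of all. The means were 380.3 ± 132.7 and 2565 ± 420 (SD, n = 5 and 5), a log2 change of 2.82 ± 0.24 (SE, 95% interval 2.30 to 3.34, limma adjusted p = 9.6e-05). Only 4 of the 12278 cornea genes had a smaller p. In the conjunctiva *Dbp* was read at 509, 193, 452 and 419.7 in AL 1, 3, 4 and 5 and at 2979, 2797, 2944, 2419.98 and 1929 in CR 1 to 5. Here too every CR library was above every AL library, and the low AL library was AL 3. The means were 393 ± 139 (SD, n = 4) and 2614 ± 442 (n = 5), a log2 change of 2.80 ± 0.25 (SE, 95% interval 2.25 to 3.35, limma adjusted p = 3.32e-04). The spread among libraries was wider in AL than in CR, with a coefficient of variation of 34.9% against 16.4% in the cornea and 35.2% against 16.9% in the conjunctiva; this difference in spread was not tested.

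*Tef*, the thyrotroph embryonic factor, rose less than *Dbp*. In the cornea it was read at 1261, 803, 1221, 1336 and 874 normalized counts in AL 1 to 5 and at 4237, 4045, 3425, 3529 and 2695 in CR 1, 2, 3, 4 and 7. The diets did not overlap, and the lowest library of each diet, AL 2 and CR 7, was also the lowest for *Dbp*. *Tef* averaged 1099 ± 243 in AL and 3586 ± 604 in CR (SD, n = 5 and 5), a log2 change of 1.72 ± 0.16 (SE, 95% interval 1.39 to 2.05, limma adjusted p = 1.25e-05). In the conjunctiva it was read at 1451, 815, 1178 and 869 in AL 1, 3, 4 and 5 and at 4798, 4540.2, 4058, 3064 and 2426 in CR 1 to 5. All 5 CR libraries were above the 4 AL libraries, with AL 3 and CR 5 lowest in their diets, again as for *Dbp*. The means were 1078 ± 296 (SD, n = 4) and 3777 ± 1005 (n = 5), a log2 change of 1.80 ± 0.22 (SE, 95% interval 1.33 to 2.28, limma adjusted p = 0.00214). The calls of *Dbp* and *Tef* were kept in every alternative run, including without cornea AL 1 (log2 changes 2.97 and 1.78) or CR 7 (2.91 and 1.82) and without conjunctiva AL 3 (2.49 and 1.68) or CR 3 (2.75 and 1.77).

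*Hlf*, the hepatic leukemia factor gene, had the smallest fitted changes and was per exon length the most abundant of the 4 in all libraries but conjunctiva CR 1 and CR 3, where *Dbp* was higher. In the cornea it was read at 9947, 9586, 10105, 13039 and 10471 normalized counts in AL 1 to 5 and at 12531, 13848, 12905, 10897.5 and 13159 in CR 1, 2, 3, 4 and 7. The diets overlapped through AL 4 alone, which was above 3 of the 5 CR libraries, while the lowest CR library, CR 4, was above the other 4 AL libraries. The means were 10630 ± 1384 and 12670 ± 1100 (SD, n = 5 and 5), a log2 change of 0.26 ± 0.10 (SE, 95% interval 0.04 to 0.48, limma adjusted p = 0.207), which was not called. The fitted value fell to 0.10 once the fraction of undetected genes entered as a covariate, and was 0.33 without AL 4, where the adjusted p was 0.0485 but the fold stayed under 1.5. In the conjunctiva *Hlf* was read at 3852, 2850.3, 3091 and 3629 in AL 1, 3, 4 and 5 and at 6521, 6677, 4495, 6769 and 6718 in CR 1 to 5. The CR libraries were all above the AL libraries, and CR 3 stood below the other 4. *Hlf* averaged 3356 ± 464.5 (SD, n = 4) in AL and 6236 ± 978 (n = 5) in CR, a log2 change of 0.89 ± 0.16 (SE, 95% interval 0.55 to 1.22, limma adjusted p = 0.0154), and was called higher. That call was lost when any 1 of 5 libraries was left out, although the change stayed at a similar size. The log2 change was 0.81 without AL 3, 0.85 without AL 4, 0.87 without CR 1, 0.86 without CR 2 and 0.85 without CR 4, with adjusted p of 0.0682, 0.0967, 0.0764, 0.0797 and 0.051. Without CR 3, the library with the most muscle RNA, the change was 1.001 (limma adjusted p = 0.00155). Corneal epithelium markers summed to 99090 to 118100 in the AL conjunctiva and to 94260 to 146000 in CR, lowest in CR 3. *Krt5* (means 49380 in AL and 52960 in CR) and *Aldh3a1* (34670 and 46520) carried most of that sum. *Krt12* went the other way by its means, at 3006 ± 1702 and 2013 ± 1597. The part of these markers in the *Hlf* values was not tested.

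*Nfil3*, the repressor, was scarce. The corneal epithelium held 5, 20, 22, 36 and 25 reads of it in AL 1 to 5, or 5.50, 21.8, 24.0, 31.8 and 25.7 normalized counts. The CR libraries held 0, 0, 21, 0 and 25 reads (CR 1, 2, 3, 4 and 7), or 0, 0, 15.9, 0 and 23.2 normalized counts. So 3 CR libraries had no read while CR 3 and CR 7 lay within the AL range. CR 7 had the highest sums of the conjunctival epithelium list, carried by keratins, and of fibroblast markers. *Nfil3* averaged 21.8 ± 9.83 in AL and 7.83 ± 11.02 in CR (SD, n = 5 and 5). Its log2 change of −2.59 ± 1.09 (SE, 95% interval −4.87 to −0.31, limma adjusted p = 0.219) was not called and exceeded the log2 ratio of the means (−1.48), since it averages log2 values that include zeros. A larger pseudocount of 10 brought it to −0.97, quantile normalization to −1.57, and the fraction of undetected genes as covariate to −4.02, none of them called. Without CR 7 it was −3.31 (limma adjusted p = 0.139). Macrophage markers summed to 301 to 394 normalized counts in the AL cornea and to 157 to 309 in CR, lowest in CR 7. All 4 macrophage genes tested there had a fitted change below 0, and *C1qa*, a complement gene, was called lower (log2 change −1.58, limma adjusted p = 0.0467, every CR library below every AL library). The part of other cells in these *Nfil3* values was not tested.

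In the conjunctiva *Nfil3* was read at 67.5, 146, 89.3 and 111 normalized counts in AL 1, 3, 4 and 5 and at 34.1, 7.61, 35.7, 56.4 and 9.97 in CR 1 to 5. Every CR library was below every AL library. The means were 103.4 ± 33.4 (SD, n = 4) and 28.8 ± 20.2 (n = 5), and the log2 change was −2.10 ± 0.53 (SE, 95% interval −3.23 to −0.97, unadjusted p with limma 0.00115, adjusted p = 0.128), which did not pass over all genes. Over the alternatives it ranged from −2.43 to −1.68 with adjusted p from 0.054 to 0.369. Macrophage markers differed the same way (above), with all 7 genes lower in CR by the fitted change and none called. Fibroblast markers (6 genes) summed to 35820 to 54100 in AL and 25140 to 49560 in CR, and all 6 had a fitted change below 0, with *Col1a1* called (log2 change −1.37, limma adjusted p = 0.00592). T cell markers (4 genes in the table) summed to 14.6 to 47.2 in AL and 9.97 to 38.1 in CR. The part of these cells in the *Nfil3* values was not tested.

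The change of *Dbp* was nearly the same in the 2 tissues, and so was that of *Tef*. The difference between the log2 changes, cornea minus conjunctiva, was 0.02 for *Dbp* (95% interval −0.70 to 0.73) and −0.08 for *Tef* (−0.64 to 0.47), so these data leave room for differences of up to about those bounds. For *Hlf* the difference was −0.63 (95% interval −1.02 to −0.24), which did not pass over all genes, and for *Nfil3* the interval was too wide to give a direction (−0.49, −2.97 to 1.99). With limma, 0 of the 4 differences passed over the 11929 genes tested in both tissues (adjusted p = 0.995, 0.952, 0.387 and 0.939), where 0.0168% of genes did. *Hlf* was the only one with an unadjusted p under 0.05, which 892 of the 11929 genes had, and its adjusted p was 0.884 per shared title. With limma voom 0 passed as well. The test takes the tissues as independent, although libraries of both tissues can carry the same title and may come from 1 mouse.

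**Figure D2:**
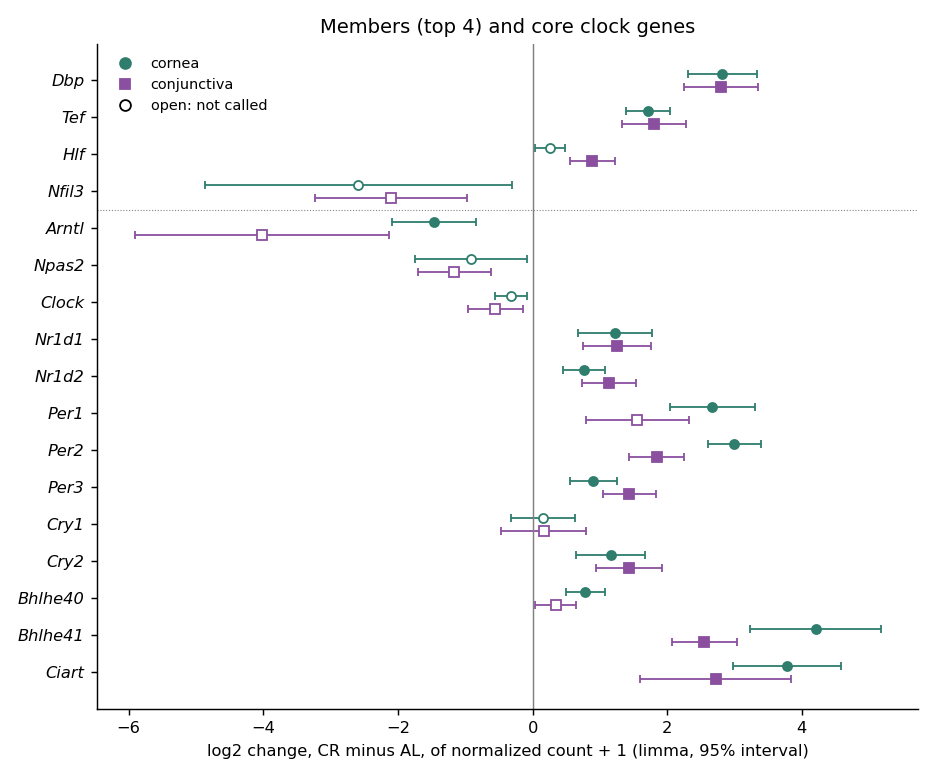
Log2 change (CR minus AL) of each gene in the cornea (circles) and the conjunctiva (squares), with 95% intervals from limma; filled symbols are called genes. *Dbp* and *Tef* lie at nearly the same place in both tissues (2.82 and 2.80, 1.72 and 1.80), *Hlf* is nearer to 0 in the cornea (0.26 against 0.89), and *Nfil3* lies below 0 with wide intervals.

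The 2 tissues were scaled in separate tables, so levels across them are set side by side as reads scaled to 1000000 counted reads (RPM), with no test. *Dbp* and *Tef* had closely similar levels in both tissues in the same diet. *Dbp* stood at 32.8 ± 11.3 (cornea) and 33.4 ± 12.1 (conjunctiva) RPM in AL, and at 224 ± 41.1 and 209.9 ± 47.5 in CR (SD). *Tef* stood at 94.9 ± 21.2 and 91.5 ± 26.6 in AL, and at 312 ± 56.0 and 304 ± 94.7 in CR. The ranges of the 2 tissues overlapped for both genes in each diet. *Hlf* did not share this pattern. In order of level, *Hlf* was highest in the CR cornea (1101 ± 95.4), then the AL cornea (917 ± 120.2), the CR conjunctiva (493 ± 61.1) and the AL conjunctiva (284 ± 42.3), and in this scale the libraries of the first pair overlapped while those of the other steps did not. *Nfil3* ran in another order, from the AL conjunctiva (8.71 ± 2.68) to the CR conjunctiva (2.30 ± 1.57), the AL cornea (1.89 ± 0.85) and the CR cornea (0.67 ± 0.94 RPM), with overlap between each neighbouring pair after the first.

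To compare levels between the genes, RPM were divided by the length of each gene's merged GENCODE exons (2993 bases for *Dbp*, 7867 for *Tef*, 6681 for *Hlf* and 2026 for *Nfil3*). The labels name a kit that covers whole transcripts and the methods an oligo(dT)-primed kit, and for reads from 3′ ends alone such a division would not be apt. In these units the 3 PAR bZIP genes summed to 160.2 ± 21.3 in the AL cornea and 279 ± 25.3 in the CR cornea, and to 65.3 ± 12.6 and 183 ± 27.9 in the conjunctiva (SD). *Hlf* made up most of the sum in the AL cornea (85.7% ± 3.27), and its share was 59.2% ± 4.75 in CR. *Dbp* made up 6.79% ± 2.22 of the sum in the AL cornea and 26.7% ± 3.52 in CR. In the conjunctiva the *Hlf* share was 65.7% ± 5.29 in AL and 41.2% ± 7.78 in CR, and the *Dbp* share 16.6% ± 3.97 and 38.1% ± 4.52. The *Dbp* share in every CR library was above that of every AL library in both tissues. The *Tef* share was 7.49% ± 1.20 in the AL cornea (6.21 to 8.74%) and 14.2% ± 1.77 in CR (11.5 to 15.7%), with no overlap. In the conjunctiva it was 17.7% ± 2.74 in AL and 20.7% ± 3.78 in CR, and the diets overlapped. Per length, *Dbp* and *Tef* were level with each other in AL (10.96 ± 3.77 and 12.1 ± 2.69 in the cornea), while in CR *Dbp* was the higher (74.7 ± 13.7 against 39.7 ± 7.13). Without the division by length *Tef* was above *Dbp* in all 19 libraries. *Nfil3* was the least abundant per length, at 0.93 ± 0.42 and 0.33 ± 0.46 in the cornea and 4.30 ± 1.32 and 1.13 ± 0.78 in the conjunctiva.

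**Figure D3:**
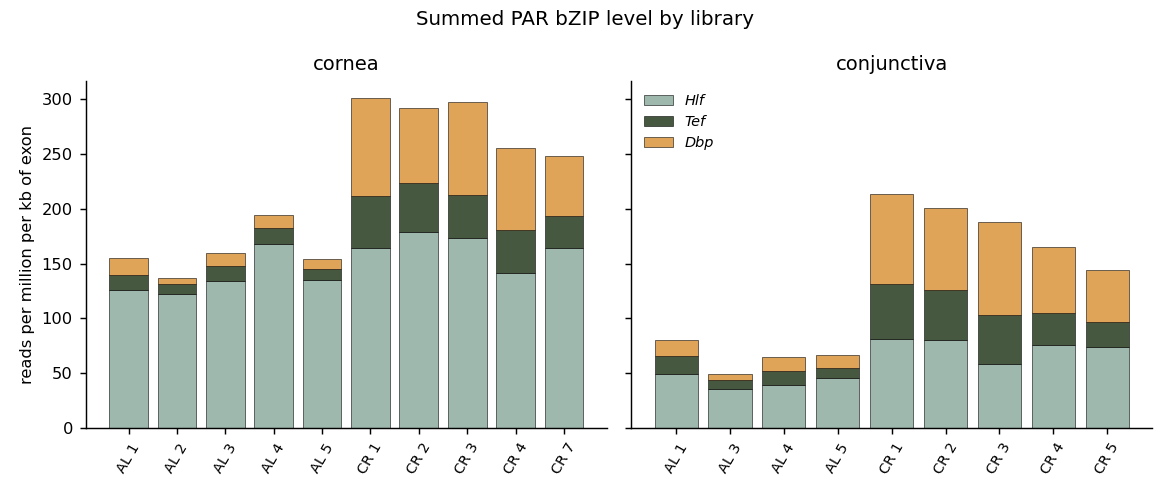
Bars give the summed level of *Hlf*, *Tef* and *Dbp* in each library, in RPM per kilobase of exon, with no error bars since each bar is 1 library. The sum runs from 136.8 to 194.9 in AL and 248 to 302 in CR in the cornea, and from 49.4 to 80.2 and 145 to 214 in the conjunctiva, with the *Dbp* part widening in every CR library.

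Within a library, the distance between activator and repressor was read as the log2 level of *Dbp* minus that of *Nfil3*. In the cornea it was 4.16 ± 1.30 in AL (SD, n = 5, range 3.05 to 6.41), highest in AL 1. It was 7.39 in CR 3 and 6.35 in CR 7, and the latter lay just under AL 1. In CR 1, 2 and 4, which had no *Nfil3* read, the distance was not measured, so no CR mean is given. In the conjunctiva it was 1.88 ± 1.07 in AL (0.40 to 2.90) and 6.79 ± 1.14 in CR (5.40 to 8.34), with a gap between the diets (SD, n = 4 and 5). Among the 4 AL conjunctiva libraries the order of *Nfil3* (AL 3, 5, 4, 1 from high to low) was the exact reverse of the order of *Dbp*. The same could not be seen in the AL cornea, apart from AL 1, which had the most *Dbp* and the least *Nfil3*. Nor was it seen in the CR conjunctiva. There CR 1 had the most *Dbp* but CR 2 the least *Nfil3*, and CR 5 was low in both (1929 and 9.97 normalized counts). *Dbp* minus *Tef* on the log2 scale was −1.58 ± 0.34 in the AL cornea and −0.48 ± 0.18 in the CR cornea, and −1.50 ± 0.43 and −0.50 ± 0.18 in the conjunctiva. These distances are descriptions, with no test.

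**Figure D4:**
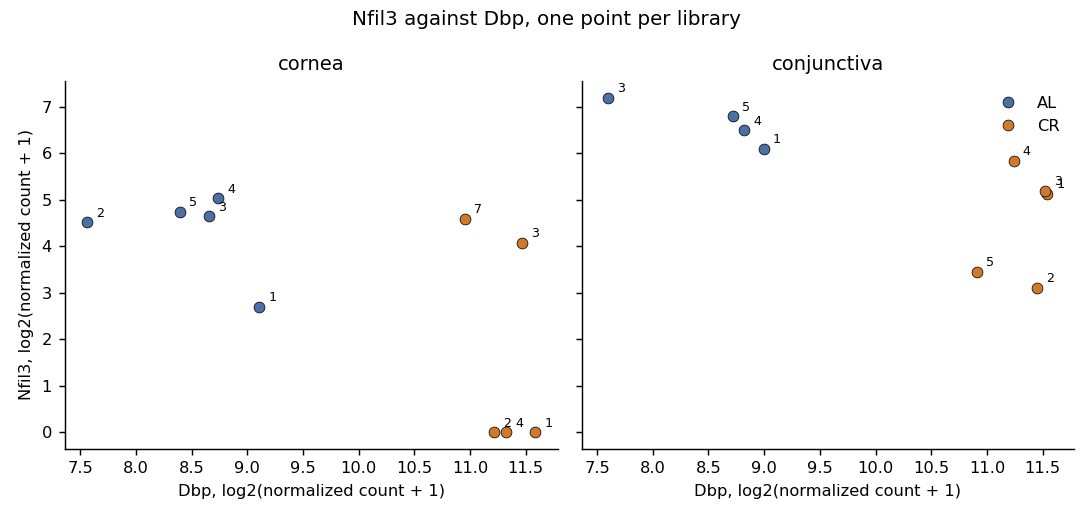
Each point is 1 library, labelled with its replicate number, with *Dbp* on the x axis and *Nfil3* on the y axis, both as log2(normalized count + 1). In the conjunctiva the AL and CR libraries occupy opposite corners, while in the cornea CR 3 and CR 7 keep *Nfil3* at the AL level and CR 1, 2 and 4 lie at 0.

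The genes whose profiles were nearest to each member were found over all 19 libraries, by the root mean square distance of log2 levels centred within each tissue. Nearest to *Dbp* were *Per2* (distance 0.47), *Tef* (0.58) and *Per1* (0.63), and nearest to *Tef* were *Usp2* (0.34), *Cry2* (0.38) and *Nr1d1* (0.41). The profile of *Hlf* was nearest to *Sec22c* (0.15) and *Atxn3* (0.17), neither of them a clock gene. *Nfil3* was closest to *Prelp* (1.12), *Stbd1* (1.20) and *Col1a1* (1.23). The root mean square of each member's own centred profile was 1.457 for *Dbp*, 0.9305 for *Tef*, 0.362 for *Hlf* and 1.765 for *Nfil3*. Distances are thus not on a like scale between members. With the sign turned, the nearest were *Prag1* (0.84) and *Slc46a2* (0.92) for *Dbp*, *Prag1* (0.42) and *Ifi47* (0.50) for *Tef*, *Gsn* (0.20) and *Dalrd3* (0.21) for *Hlf*, and *5930430L01Rik* (1.28) and *Tef* (1.28) for *Nfil3*. A distance of this kind favours genes with a change of the same size, and all these libraries share the split by diet.

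The clock genes known to drive or restrain the 4 members moved around them as follows. Of the 3 E-box activators, *Arntl* (the gene of BMAL1) was called lower in the cornea, at 230.4 ± 64.4 normalized counts in AL and 87.1 ± 35.6 in CR (−1.46 on the log2 scale, limma adjusted p = 0.0195). In the conjunctiva 0 of the 3 were called with limma, although all 3 had an unadjusted p under 0.05 and 1 (*Arntl*) was called with limma voom. *Arntl* was there at 179 ± 39.4 in AL and 16.1 ± 12.3 in CR (−4.03, adjusted p = 0.0937), with every CR library below every AL library. It was also called there with a pseudocount of 10 (−2.98), quantile normalization (−3.8) and array weights (−3.86). Of the 8 repressors of E-box activity, 7 were called higher in the cornea and 5 in the conjunctiva, none lower, with a median log2 change of 1.91 and 1.496 against −0.03 and −0.02 over all genes tested. *Per2* (2.998 and 1.84), *Ciart* (3.78 and 2.72) and *Bhlhe41* (4.21 and 2.55) were called in both tissues, as were *Per3* (0.90 and 1.44) and *Cry2* (1.16 and 1.43); with limma voom *Ciart* was not called in the conjunctiva. *Per1* (2.67) and *Bhlhe40* (0.78) were called in the cornea, and their conjunctiva values were 1.55 (adjusted p = 0.117) and 0.34 (adjusted p = 0.46). Several of these calls changed when 1 library was left out, while the sign of the change was kept. *Arntl* lost its cornea call without AL 2, AL 5 or CR 2 (−1.43, −1.36 and −1.34) and was called in the conjunctiva without CR 4 (−3.17). *Cry2* lost its cornea call without AL 2, AL 3, AL 5, CR 2 or CR 3 (1.02 to 1.19), and *Ciart* its conjunctiva call without AL 1, AL 4, AL 5, CR 1 or CR 2 (2.40 to 2.85). With the fraction of undetected genes as covariate, *Per3* (0.67), *Cry2* (1.35) and *Arntl* (−1.28) were not called in the cornea. *Cry1*, a D-box gene, had changes of 0.15 and 0.16 and was not called. The study named several of these genes, and *Dbp* in the conjunctiva, as raised in the same libraries, so their direction is not independent evidence. Its raised conjunctiva genes also included *Per1*, which was not called there with limma here.

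The nuclear receptors that act on ROR elements, and so on *Nfil3*, split by kind in their calls. *Nr1d1* and *Nr1d2*, the genes of the repressors REV-ERB alpha and beta, were called higher in both tissues. *Nr1d1* stood at 770.3 ± 335 in AL and 1691 ± 259 in CR in the cornea, and at 816 ± 281 and 1876 ± 402 in the conjunctiva (log2 changes 1.23 and 1.25, limma adjusted p = 0.0406 and 0.0396). *Nr1d2* changed by 0.76 and 1.14 (adjusted p = 0.0142 and 0.00949). The *Nr1d1* calls were near the threshold. They were lost in the cornea without AL 1, 3 or 5 or CR 2, 3, 4 or 7 (1.16 to 1.30) and with the covariate (0.84), and in the conjunctiva without AL 4 or CR 1, 2 or 4 (1.14 to 1.27), with the covariate (1.17) and after quantile normalization (1.18). *Nr1d2* lost its cornea call without AL 2 (0.67) or CR 3 (0.71). By limma and by limma voom the activators *Rora* and *Rorb* gave 0 calls in either tissue, with 1 in the cornea (*Rorb*) and 1 in the conjunctiva (*Rora*) at an unadjusted p under 0.05. *Rora* stood at 2781 ± 188 and 2943 ± 328 normalized counts in the cornea and at 1280 ± 147 and 1791 ± 610 in the conjunctiva. There its log2 change was 0.44 (limma adjusted p = 0.47), with every CR library above every AL library. *Rorb* had fitted changes below 0 in both tissues (−3.09 in the cornea and −0.49 in the conjunctiva, limma adjusted p = 0.233 and 0.766). In the cornea it was called without AL 4 (−4.07) or with array weights (−3.91). Its cornea value rested on few reads, at 23.8 ± 16.1 in AL and 3.07 ± 6.86 in CR, where the median was 0. The D-box clock list (8 genes, all of them also in the lists above) had 5 members called higher in the cornea and 4 in the conjunctiva.

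Genes known as outputs of the PAR bZIP factors were read from a list of 14, mostly liver and kidney genes, of which 6 in the cornea and 7 in the conjunctiva passed the filter. In each tissue 2 were called higher and none lower. By the fitted change 4 of the 6 were above 0 and 2 below in the cornea, and 7 of 7 above 0 in the conjunctiva, with a median log2 change of 0.59 in the cornea and 0.55 in the conjunctiva against −0.03 and −0.02 over all genes. *Cyp2a5*, a coumarin-oxidizing cytochrome P450, rose in the cornea from 153 ± 52.4 to 576 ± 152 and in the conjunctiva from 2619 ± 543 to 5035 ± 364 (log2 changes 1.95 and 0.96, limma adjusted p = 0.00124 and 0.00639), in 5 of 5 CR libraries of each tissue. It has close copies in its gene cluster that can share reads, so its values are uncertain. *Alas1*, which makes the first step of heme synthesis, rose in the conjunctiva from 1782 ± 465 to 3730.0 ± 326 (1.10, adjusted p = 0.00639). In the cornea it had a change of 0.63 (adjusted p = 0.0616), with all CR libraries above all AL libraries, and was called without AL 4 (0.64). *Pdxk*, the pyridoxal kinase, rose in the cornea from 2546 ± 482 to 3819 ± 424 (0.60, adjusted p = 0.0195, with overlapping libraries). This call was lost without AL 1, 2, 3 or 5 or CR 2, 3 or 7 (0.53 to 0.60) and with the covariate (0.36). Its conjunctiva value was 0.37 (adjusted p = 0.508). *Por*, the electron donor of the cytochromes P450, had values of 0.58 and 0.55 (limma adjusted p = 0.0531 and 0.285). It was called in the cornea without AL 4 (0.69), CR 1 (0.64) or CR 4 (0.66) and with array weights (0.65). In the conjunctiva it was called without CR 3 (0.68). The cornea genes below 0 were *Fmo5*, a flavin monooxygenase (log2 change −0.45, limma unadjusted p = 0.00683, adjusted p = 0.13), and *Ppara*, a fatty acid receptor (−0.66, unadjusted p = 0.0187, adjusted p = 0.194). Neither was called, and their conjunctiva values were 0.15 and 0.38 (adjusted p = 0.776 and 0.541).

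The C/EBP relatives, which share part of the DNA sequence preference of this family, had 0 of 5 tested genes called in each tissue by limma and by limma voom, with 3 and 0 at an unadjusted p under 0.05. Over all genes tested, 2219 of 12278 and 1310 of 13929 were under that limit. *Cebpb* came closest, at 81.8 ± 21.02 and 152 ± 36.0 in the cornea, where the diets did not overlap (log2 change 0.89, limma adjusted p = 0.0678). It was called without AL 4 (1.01) or CR 1 (0.98) and with array weights (0.95). Its conjunctiva value was −0.04 (adjusted p = 0.963). The changes of *Cebpd*, *Cebpg* and *Cebpa* were 0.61, 0.34 and 0.05 in the cornea and −0.16, 0.20 and 0.36 in the conjunctiva.

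Of 14 genes of the lymphoid and dendritic cells that need NFIL3, 1 passed the filter in the cornea and 7 in the conjunctiva. By limma and by limma voom 0 were called in either tissue. Of all 13929 conjunctiva genes, 1310 had an unadjusted p under 0.05 with limma. Of this list, 0 in the cornea and 1 in the conjunctiva did. That gene was *Batf3*, a factor of the same dendritic cells, at 35.9 ± 15.9 in the AL conjunctiva and 6.44 ± 5.93 in CR (log2 change −2.77, limma adjusted p = 0.243), where every CR library lay below every AL library. *Clec9a*, a surface receptor of those cells, stood at 11.3 ± 6.20 and 12.6 ± 15.6 there. The values of *Klrd1* (1.69, adjusted p = 0.608) and *Nkg7* (−0.96, adjusted p = 0.773) rested on few reads.

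Glucocorticoid targets were read because *Per1* and several others answer both to that hormone and to the clock. In the cornea 3 of 8 tested genes were called higher, and in the conjunctiva 0 of 10 by limma and by limma voom, with 5 at an unadjusted p under 0.05. The called cornea genes were *Per1*, *Tsc22d3* (log2 change 1.04, limma adjusted p = 0.00497) and *Fkbp5* (1.36, adjusted p = 0.0137, not called without CR 2 or CR 3 at 1.33 and 1.31). In the conjunctiva *Fkbp5* had a value of 0.83 (limma adjusted p = 0.0594). It was called there without CR 5 (0.94), with the covariate (0.99), with quantile normalization (0.84) and with array weights (0.96). *Klf9* had a conjunctiva value of 0.65 (limma adjusted p = 0.211).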

How the data were processed

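The authors trimmed single reads with cutadapt, aligned them with STAR and counted them per gene with HTSeq, and DESeq2 supplied size factors; versions are not given in the sources used here. The labels list build GRCm39 and the methods mm10. The deposited values are log2(count divided by size factor, plus 1), scaled by the authors within each tissue, and 100% of them returned whole reads within 0.1 read. Of the 24557 features, 5 rows repeating a symbol were dropped. A figure legend gives the conjunctiva groups in other sizes than the labels, which were followed. The labels number the libraries but do not say that each is a separate mouse, so p-values measure the spread between these samples.

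Diets were compared in each tissue with limma 3.58.1 (statmod 1.5.0, R 4.3.3; trend, robust) on log2(normalized count + 1), for genes averaging 10 or more normalized counts, with Benjamini-Hochberg adjustment. Calls needed an adjusted p under 0.05 and a fold over 1.5. Changes between tissues were compared by the difference over its standard error. The procedure was tested on simulated data. The members and lists were chosen with earlier results of these data known. Named were the members, clock-list genes with an adjusted p under 0.05, up to 4 genes of each other list by smallest p, and the 3 nearest and 2 nearest sign-turned profiles; *Cry1*, *Rora*, *Rorb*, *Sphk2*, *Gm17597* and *Col1a1* were named besides, after their values were seen, and some results that the rule would name are not reported here. Alternatives tried: a pseudocount of 0.5 or 10, filtering at 50 or not at all, quantile and TMM scaling, limma voom on the recovered reads, array weights, the fraction of undetected genes as covariate, the replicate number as a block, adjusted p alone and leaving out each library. No count model was fitted, although reads were recovered from the deposited log2 values and used with limma voom.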

Additional observations from a re-analysis of the deposited data

Results flagged for a closer look

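Each member in each of the 4 groups was checked for a library far from the rest of its group, 16 groups in all, and chance marks about 1 in 20 such groups. *Hlf* in cornea AL 4 (13040 normalized counts) lay far above the other 4 AL libraries, and *Hlf* in conjunctiva CR 3 (4495) lay far below the other 4 CR libraries. Conjunctiva CR 3 also had the highest sum of skeletal muscle markers (117300 normalized counts) and the lowest of corneal epithelium markers (94260), and their part in its *Hlf* value was not tested.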

How the results depend on the processing

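*Dbp* and *Tef* stayed called in both tissues under all alternatives, with log2 changes of 2.49 to 2.97 and 1.61 to 1.99. *Hlf* stayed uncalled in the cornea (0.10 to 0.33) and *Nfil3* in both tissues (−4.02 to −0.97 and −2.43 to −1.68). Leaving out single libraries moved *Hlf* in the conjunctiva over 0.81 to 1.001, with the call lost for 5 of 9 libraries. With the replicate number as a block (replicate block) it was 0.86 (limma adjusted p = 0.0929), and no other call of the 4 genes changed. Deviations of same-numbered AL and CR libraries correlated between −0.297 and 0.288 for cornea (4 pairs) and −0.0619 and 0.0526 for conjunctiva (4 pairs). For libraries of the 2 tissues with the same title the correlations were −0.42 to 0.144 (8 pairs). So few pairs cannot settle whether the numbers pair the libraries. The tissue difference of *Nfil3* changed sign with a pseudocount of 10 (0.71) and quantile normalization (0.39). That of *Dbp* changed sign per shared title (replicate block, −0.23) and ranged from −0.22 to 0.33 without single libraries, and that of *Tef* from −0.24 to 0.037. Among other genes, changes near 0 changed sign: *Cry1* (−0.011) and *Klf9* (−0.14) in the cornea with the covariate and *Cebpb* in the conjunctiva with the block (0.016), and, without single libraries, *Cry1* in the cornea (−0.029 to 0.30) and in the conjunctiva (−0.046 to 0.33), *Cebpb* (−0.15 to 0.033) and *Cebpd* (−0.35 to 0.076) in the conjunctiva. The block also ended the calls of *Bhlhe40*, *Arntl*, *Nr1d1* and *Pdxk* in the cornea and of *Ciart*, *Cry2*, *Nr1d1*, *Nr1d2*, *Cyp2a5* and *Col1a1* in the conjunctiva. A filter at 50 left *Nfil3* out of the cornea test. All genes called numbered 150 in the cornea, 705 with array weights, 99 with voom, 62 with the covariate, 46 with the block and 53 to 536 without single libraries. They numbered 50 in the conjunctiva, 149 with array weights, 10 with the block and 26 to 127 without single libraries. The share of calls that were higher was 61.3% in the cornea, 37% with array weights, 43.5% without AL 4, 42.7% without CR 1 and 42.7% to 71.2% over all single libraries left out. It was 62% in the conjunctiva, 51.8% with quantile normalization, 46.3% with array weights, 80% with the block and 52.6% to 68.8% without single libraries. The cornea libraries held only 0 to 36 reads of *Nfil3*, and its change there could not be separated from 0 after adjustment. The part of read depth in this was not tested.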
